A study of Mus musculus with 6 samples.

Results

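Granulosa cells of the ovary and Sertoli cells of the testis arise from a common supporting-cell precursor, and a small set of transcription factors sets and keeps their identity. A set of 10 such genes was followed in mouse cumulus-oocyte complexes (COCs) cultured with or without an inhibitor of the kinase MTOR. They were chosen by name, with earlier results of these data known, and all 10 had a probe set of their own among the 22180 genes measured. Of these, 6 were taken as factors of granulosa cells (Foxl2, Nr5a1, Nr5a2, Gata4, Wt1 and Nr0b1) and 3 as factors of Sertoli cells (Sox9, Sox8 and Dmrt1). The remaining gene, Fshr, encodes the receptor for follicle-stimulating hormone (FSH) and served as a readout of granulosa differentiation.

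COCs hold an oocyte and the cumulus cells around it, which are granulosa cells of the antral follicle. Wildtype females, given as 21 days old in one label and 23 days old in another, received 5 IU of equine chorionic gonadotropin (eCG) and were used 46 h later. Sets of 100 COCs were then cultured in DMSO, the solvent, or in Torin1 at 5 µM, which blocks the kinase in both MTOR complexes. Both groups received 3 mg/ml of albumin and 5 µM milrinone, which blocks the oocyte phosphodiesterase PDE3 and holds the oocyte in meiotic arrest. Culture lasted 14 h by the sample source and 16 h by the growth protocol, and which applies was not settled. Each group had 3 arrays, of 1 pooled set of COCs each. Whether the sets came from separate mice or days is not stated, so the p-values rest on the variation among these arrays, part or all of which may be technical.

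As background, FOXL2 is a forkhead factor that keeps granulosa cells from turning toward a Sertoli state, and its loss in the adult ovary lets SOX9 appear. SOX9 and its relative SOX8 drive and maintain Sertoli cells, and DMRT1 keeps FOXL2 off in the testis. NR5A1, NR5A2, GATA4 and WT1 act in both lineages, where they serve steroid synthesis and somatic cell fate, and NR0B1 is a nuclear receptor without a classical DNA-binding domain that represses NR5A1. FSH acts on granulosa cells through FSHR, cAMP and protein kinase A.

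Of the 10 genes, Sox9 and Nr0b1 rose with Torin1, Foxl2, Nr5a2 and Fshr fell, and Nr5a1, Gata4, Wt1, Sox8 and Dmrt1 were not called. A gene was called at an adjusted p below 0.05 in the limma fit over all 22180 genes, of which 12.1% were called, 5.13% higher and 6.94% lower. Sox9 rose 6.99-fold and Fshr fell 6.85-fold, while Foxl2 fell 2.77-fold and Nr5a2 2.32-fold. Values did not overlap between the groups for 5 of the 10 genes, against 28.6% of all genes. The calls of Sox9, Foxl2 and Fshr held in all 16 alternative settings tried, including each array left out in turn.

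**Figure D1:**
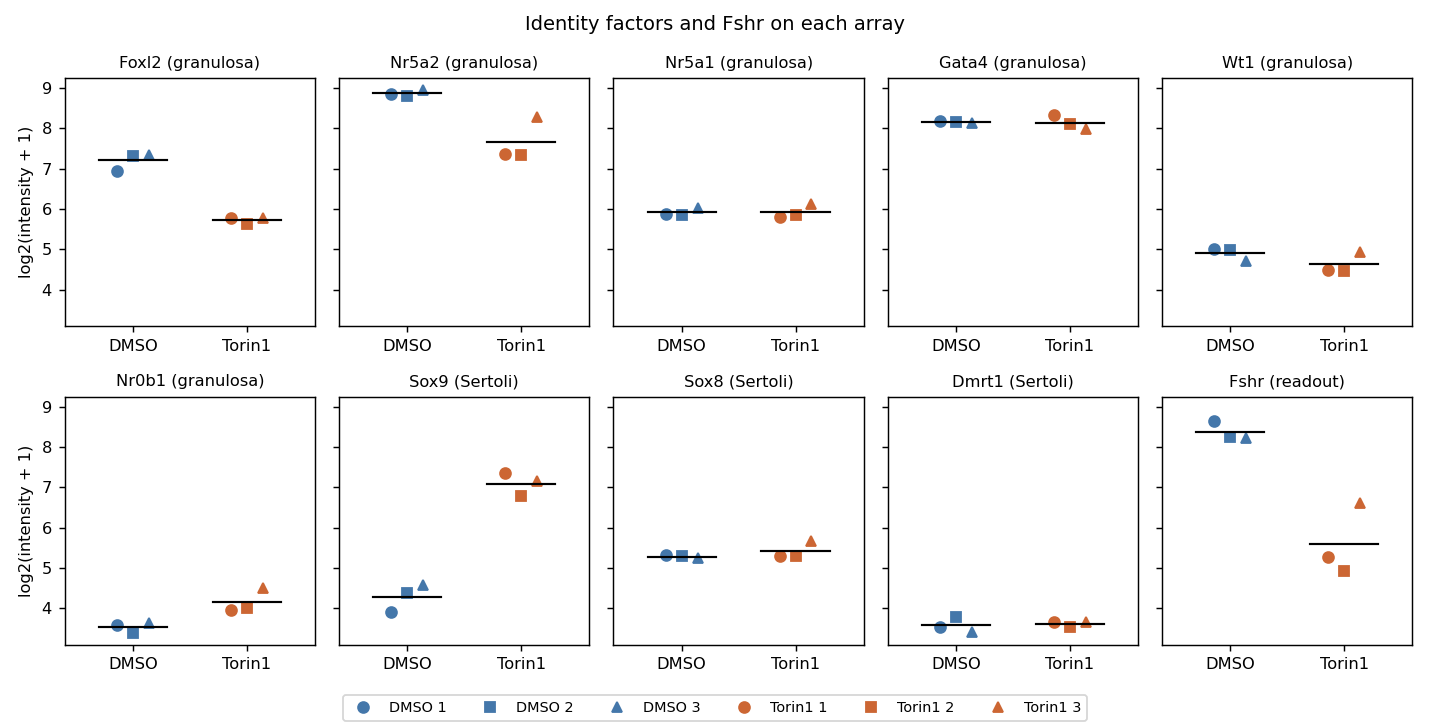
Log2(intensity + 1) of the 10 genes on each of the 3 DMSO arrays (blue) and 3 Torin1 arrays (orange), with the marker shape giving the sample number and the black line the group mean. Sox9 lies higher on all Torin1 arrays and Foxl2, Nr5a2 and Fshr lower, and Torin1 sample 3 (triangle) lies apart from the other Torin1 samples for Fshr and Nr5a2.

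Some facts of the whole set bear on these values. Torin1 sample 3 differed more from Torin1 samples 1 and 2 (SD of log2 differences over genes 0.33 and 0.35) than these did from each other (0.20). Its label repeats the short name of sample 2, but the files do not hold identical values. The complexes carried the markers of both cell types that the label names. Of 17 measured oocyte markers all lay above 0 in log2 change, with a median of 0.20 and 2 called (11.8%, against 12.1% of all genes). Their summed intensity was 7214 to 7721 in DMSO and 8005 to 8914 in Torin1, while that of 11 cumulus and granulosa markers was 6160 to 6307 and 3750 to 3929, with 9 called lower and 1 higher. Neither oocyte call held without DMSO sample 1 or 3 or Torin1 sample 1 or 2. Several cumulus and granulosa calls, the higher one among them, were also lost with 1 array left out. These 11 markers ranged from -3.997 to 0.92 in log2 change, and 6 of them are also in the FSH receptor list below. In such bulk samples fewer cells of a type, less RNA per cell and changes of the marker genes themselves cannot be told apart. What part the shift in these sums had in the results below was not tested.

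RefSeq promoter windows (GRCm38.p6) were at hand for 5 of the 10 genes: Foxl2, Nr5a2, Nr0b1, Sox8 and Fshr. Those of the 3 members that fell are shown as the 250 bases before the annotated start, 5′ to 3′ on the gene's strand. Capitals mark matches to any of 7 short motifs on either strand. The motif of NR5A receptors was searched as AAGGTCA. That of GATA factors was searched as AGATAA. The forkhead motif was TGTTTAC. The E-box was CACGTG. The SOX motif was AACAAT. The cAMP response element was TGACGTCA. The GC box was GGGCGG.
Fshr: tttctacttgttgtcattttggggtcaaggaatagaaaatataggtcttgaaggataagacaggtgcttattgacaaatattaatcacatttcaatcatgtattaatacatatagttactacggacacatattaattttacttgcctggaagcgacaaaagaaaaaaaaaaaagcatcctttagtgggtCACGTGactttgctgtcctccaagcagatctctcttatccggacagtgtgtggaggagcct
Foxl2: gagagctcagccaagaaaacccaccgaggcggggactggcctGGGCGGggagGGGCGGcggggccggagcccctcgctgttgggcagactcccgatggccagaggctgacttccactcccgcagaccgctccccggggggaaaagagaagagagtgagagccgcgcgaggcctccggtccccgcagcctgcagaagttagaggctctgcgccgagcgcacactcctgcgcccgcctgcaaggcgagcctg
Nr5a2: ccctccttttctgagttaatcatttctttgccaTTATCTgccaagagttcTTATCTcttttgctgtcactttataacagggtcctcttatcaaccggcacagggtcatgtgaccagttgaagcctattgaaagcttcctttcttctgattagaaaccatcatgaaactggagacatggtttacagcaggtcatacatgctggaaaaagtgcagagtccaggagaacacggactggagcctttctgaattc

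The Fshr window (chr17:89200676-89200925, minus strand) held 1 match, an E-box that began 61 bases before the start. This element is known as a site of the factors USF1 and USF2, and 6.02% of the 32851 windows of this length held it. Usf1 and Usf2 themselves were not called (log2 changes of -0.13 ± 0.12 and -0.08 ± 0.07, SE). The Foxl2 window (chr9:98955357-98955606, plus strand) was rich in G and C (70.8%, against a median of 52.4% over all windows) and held 2 GC boxes, as 32.7% of windows held at least 1. The upstream of 2 annotated Nr5a2 windows (chr1:136960449-136960698, minus strand) held the GATA letters on its reverse strand starting 217 and 200 bases before the start. Such a match occurred in 9.99% of windows. The other Nr5a2 window and the Nr0b1 window held none of the 7 motifs, and the Sox8 window held an E-box and 2 GC boxes. No motif was shared by the 3 windows of the genes that fell. A match is a description of letters, and binding was not measured.

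Foxl2, the factor that keeps granulosa identity, fell in every Torin1 sample. Its intensities were 122.7, 158.7 and 161.4 in DMSO samples 1, 2 and 3, and 54.1, 48.8 and 53.7 in Torin1 samples 1, 2 and 3. The groups were far apart, and the 3 Torin1 values lay close together. On the log2 scale, which is log2(intensity + 1) throughout and understates the changes of dim genes, the mean went from 7.20 ± 0.22 to 5.73 ± 0.08 (SD, n = 3 each). The change was -1.47 ± 0.12 (SE; adjusted p = 0.000595), the 186th deepest fall of all genes. Leaving out any 1 array gave -1.60 to -1.40.

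Nr5a2, an orphan nuclear receptor that granulosa cells need for ovulation, also fell, but its size depended on 1 array. Intensities were 462.3, 445.6 and 496.9 in DMSO and 162.8, 160.8 and 309.4 in Torin1. All Torin1 values were below all DMSO values, but Torin1 sample 3 lay between the other Torin1 samples and the DMSO samples. The log2 change was -1.22 ± 0.24 (adjusted p = 0.0203), and it was -1.53 without Torin1 sample 3 (adjusted p = 0.000131). The gene was not called without DMSO sample 1, 2 or 3 or Torin1 sample 1 or 2 (adjusted p = 0.0666, 0.0629, 0.0806, 0.0665 and 0.0598).

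Nr5a1, the close relative of Nr5a2 and a main activator of steroid-forming genes, was not called. It stood at 57.3, 56.6 and 64.3 intensity units in DMSO and at 54.8, 56.3 and 68.2 in Torin1, so that the Torin1 values lay on both sides of the DMSO range. The log2 change was 0.00 with a 95% interval of -0.25 to 0.26 (adjusted p = 0.991), and its sign turned in 6 of 16 alternatives. Within arrays, the change of Nr5a2 minus that of Nr5a1 was -1.22 ± 0.21 (SE). This and 4 further differences between related members were chosen after the values were seen. For each of these 5 pairs the exact two-sided permutation p was 0.1 (0.1 adjusted over the pairs), the smallest that 3 against 3 samples allow.

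Gata4, a zinc finger factor of gonadal somatic cells, had intensities of 289.9, 286.1 and 281.9 in DMSO and 320.5, 275.1 and 251.7 in Torin1. The Torin1 values spread on both sides of a tight DMSO group. Its log2 change was -0.03 (95% interval -0.26 to 0.21; adjusted p = 0.941), so a fall as large as that of Foxl2 lay outside the interval. Wt1, a zinc finger factor of the early gonad that is kept on in granulosa and Sertoli cells, was measured at 31.3, 30.4 and 25.0 in DMSO and 21.2, 21.1 and 29.6 in Torin1. Torin1 sample 3 fell among the DMSO values. The change was -0.27 (95% interval -0.63 to 0.09; adjusted p = 0.361), and without Torin1 sample 3 it was -0.43 (adjusted p = 0.0543). Within arrays, the change of Foxl2 was lower than that of Gata4 by a difference of -1.45 ± 0.17 and than that of Wt1 by -1.20 ± 0.25 (SE; exact permutation p = 0.1 each).

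Nr0b1, which encodes DAX1, a repressor of NR5A1 activity, was the only granulosa factor of the 6 that was called higher. Intensities were 11.1, 9.39 and 11.4 in DMSO and 14.5, 15.0 and 21.7 in Torin1, without overlap. Both group means, 3.53 and 4.15 on the log2 scale, lay below the median gene of these arrays (4.17), which leaves its size uncertain. The change was 0.62 ± 0.16 (SE), and its adjusted p of 0.04995 lay just inside the threshold. The call was lost without DMSO sample 1, 2 or 3 or Torin1 sample 1 or 2 (adjusted p = 0.116, 0.152, 0.110, 0.0602 and 0.0710). It was also lost with a pseudocount of 16, with repeated quantile normalization and with median centring (adjusted p = 0.108, 0.0943 and 0.0817).

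Sox9, the leading Sertoli factor, rose in every Torin1 sample. Its intensities were 14.1, 19.8 and 22.7 in DMSO and 162.1, 108.1 and 141.4 in Torin1. The lowest Torin1 value lay well above the highest DMSO value. On the log2 scale the mean went from 4.29 ± 0.34 to 7.09 ± 0.29 (SD, n = 3 each), a change of 2.80 ± 0.20 (SE; adjusted p = 0.000395) and the 38th largest rise of all genes. The DMSO mean lay near the median gene (4.17), so the size depends on the floor: it was 2.87 with no pseudocount and 2.13 with a pseudocount of 16. Leaving out any 1 array gave 2.62 to 2.96.

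The other Sertoli factors were not called. Sox8, the nearest relative of Sox9 in this set, stood at 38.7, 37.9 and 36.9 in DMSO and at 38.3, 38.1 and 50.0 in Torin1, so that only Torin1 sample 3 lay above the DMSO range. Its log2 change was 0.14 (95% interval -0.13 to 0.41; adjusted p = 0.581), and 0.01 without that sample (adjusted p = 0.959). Dmrt1, a DM-domain factor of the postnatal testis, was dim on all arrays, with 10.6, 12.8 and 9.61 in DMSO and 11.6, 10.6 and 11.6 in Torin1. The groups overlapped and the change was 0.04 (95% interval -0.22 to 0.29; adjusted p = 0.917). The change of Sox9 exceeded that of Sox8 by 2.66 ± 0.28 and that of Dmrt1 by 2.77 ± 0.27 (SE; exact permutation p = 0.1 each).

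The contrast between Sertoli factors and Foxl2 was measured within arrays, as the change of each factor minus that of Foxl2. Foxl2 fell the most of the 6 granulosa factors, and no such contrast was run against the others, of which Nr5a1 and Gata4 stayed near 0. For Sox9 this was 4.28 ± 0.15 on the log2 scale, since it rose while Foxl2 fell. For Sox8 and Dmrt1 it was 1.61 ± 0.18 and 1.51 ± 0.16, close to the fall of Foxl2 alone. Each of these 3 pairs gave an exact two-sided permutation p of 0.1 (0.1 after adjustment over the pairs), the smallest possible here. All 3 differences kept their sign in every alternative that gave them a value. Median centring, the mean of probe sets and the restriction to genes above the median level could not change them.

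**Figure D2:**
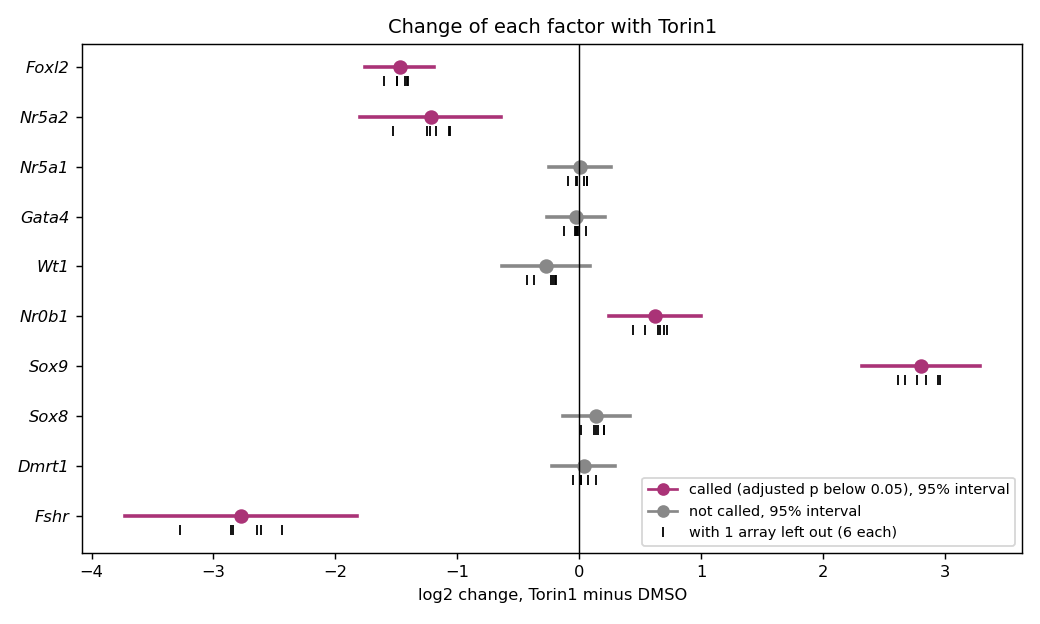
Log2 change of each gene, Torin1 minus DMSO (horizontal axis), as a point with its 95% interval from the limma fit, in purple where called and grey where not; the ticks under each bar give the 6 values with 1 array left out. Sox9 at 2.80 lies opposite Foxl2 at -1.47 and Fshr at -2.78, while the intervals of Nr5a1, Gata4, Wt1, Sox8 and Dmrt1 include 0.

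Fshr fell the most among the members that fell. Intensities were 398.9, 303.8 and 297.1 in DMSO and 37.5, 29.3 and 95.8 in Torin1. No Torin1 value came near the DMSO range, though Torin1 sample 3 was well above the other Torin1 samples. The log2 change of -2.78 ± 0.40 (SE; adjusted p = 0.00575) was the 18th deepest fall of all genes. It was -3.28 without Torin1 sample 3 and -2.44 without Torin1 sample 2, and the highest adjusted p with 1 array left out was 0.0272. Torin1 sample 3 was the highest Torin1 sample for Nr5a2, Nr5a1, Wt1, Nr0b1, Sox8 and Fshr, and by a narrow margin for Dmrt1, but not for Foxl2, Gata4 or Sox9.

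Genes with the most similar values were sought for each called member among 11090 genes above the median level. The measure was the root mean square difference over the 6 arrays, in log2 units, after each gene was centred on its own mean. For Foxl2 these were Fam83d (0.09) and Atp6v0e2 (0.09), and for Nr5a2 they were Khdrbs3 (0.10) and Rasgef1b (0.10). Sox9 was nearest to Robo2 (0.16) and Itga5 (0.18), which rose by 2.59 ± 0.15 and 2.86 ± 0.10 (SE). Itga5 encodes the integrin chain of the fibronectin receptor, and Robo2 a receptor of SLIT proteins. Fshr was nearest to Serpina3a (0.22) and Grb14 (0.23), with Grb14 at 19.5, 17.1 and 41.9 in Torin1 samples 1, 2 and 3. Nr0b1 was nearest to Trio (0.03) and Sgpl1 (0.04).

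**Figure D3:**
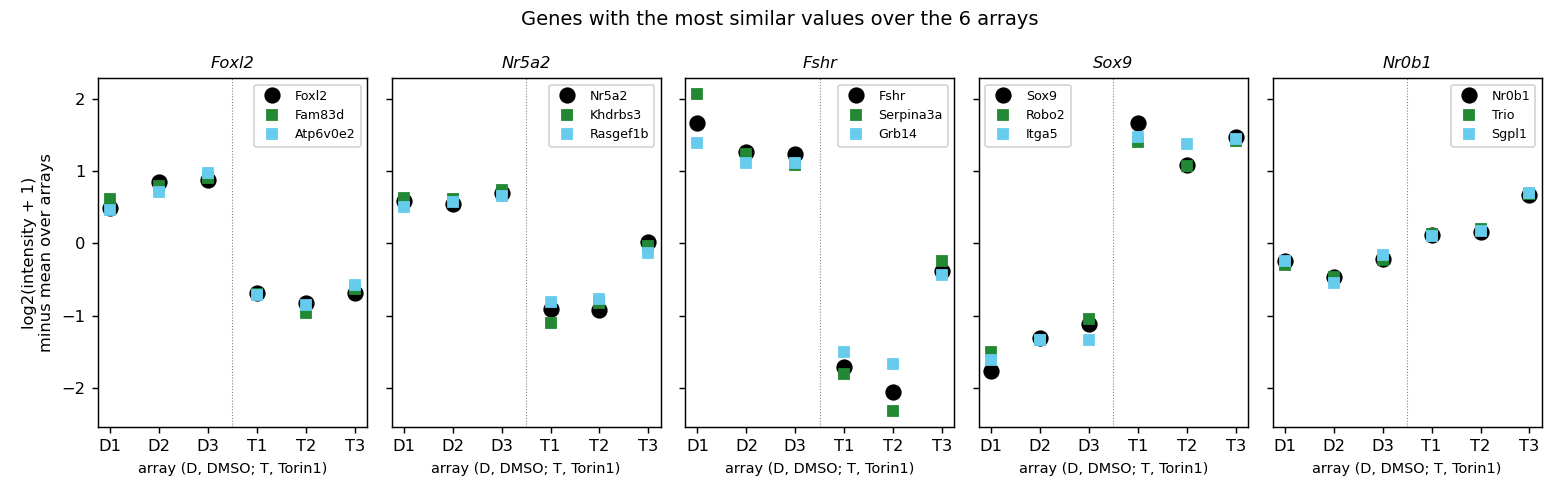
Log2(intensity + 1) minus each gene's mean over the 6 arrays (vertical axis) for the 5 called members (black) and the 2 genes nearest to each (green and light blue), on DMSO arrays D1 to D3 and Torin1 arrays T1 to T3. Fshr, Nr5a2 and Nr0b1 have a T3 value above T1 and T2, as do their nearest genes, which were picked over the same 6 arrays; Foxl2 and Sox9 themselves do not.

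Other regulators of sex determination and gonadal fate were called in both directions. Calls were made for 6 of 33 measured genes, 3 higher and 3 lower, and the median log2 change was 0.01, the same as over all genes (0.01). The share called was 18.2%, against 12.1% of all genes. Like the lists below, this one was chosen with earlier results of these data known, so the share is a description and no test. Runx1, a factor of early granulosa cells that works alongside FOXL2, had intensities of 81.0, 78.8 and 72.6 in DMSO and 297.5, 300.9 and 276.4 in Torin1. It thus rose by 1.90 ± 0.08 (adjusted p = 5.5e-05), in the direction opposite to Foxl2. Esr2, the estrogen receptor of granulosa cells, went from 440.5, 426.8 and 390.4 to 166.5, 151.3 and 120.4, and fell by 1.53 ± 0.13 (adjusted p = 0.000659).

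Dmrta1, a relative of Dmrt1, rose by 1.15 ± 0.21 from a dim start (15.7, 10.2 and 11.8 in DMSO, 25.2, 24.2 and 38.6 in Torin1; adjusted p = 0.0146). Without DMSO sample 2 or 3 it was not called (adjusted p = 0.0551 and 0.0624). The remaining calls were Zfpm1, a GATA cofactor, at 1.13 ± 0.19, Foxo1 at -1.01 ± 0.10 and the estrogen receptor gene Esr1 at -0.55 ± 0.11 (adjusted p = 0.0106, 0.00109 and 0.0198). Esr1 was not called without DMSO sample 1 or 3 (adjusted p = 0.0731 and 0.0723). Of the secreted signals of the ovarian pathway, Wnt4 was at -0.26 ± 0.11, Rspo1 at -0.02 ± 0.19 and Fst at 0.16 ± 0.07, and none was called (adjusted p = 0.201, 0.976 and 0.227). Gata6, the partner of Gata4 in granulosa cells, was at -0.70 ± 0.27 and was not called either (adjusted p = 0.167). Without Torin1 sample 3, 5 genes of this list were called lower and 4 higher. Among these 4 was Gadd45g, at 0.97 (adjusted p = 0.000924). With all arrays Gadd45g was at 1.67 ± 0.54 and was not called (adjusted p = 0.0991).

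Genes known from Sertoli cells were called in both directions. Among 30 measured genes, calls were made for 2 higher and 4 lower (20%, against 12.1% of all genes). The median was 0.01, and 18 had a mean below the median gene. Of those called lower, Amh and Inhbb are also among the cumulus and granulosa markers given above. Dhh, the hedgehog ligand that Sertoli and granulosa cells send to neighbouring steroid-forming cells, had intensities of 64.8, 54.8 and 78.6 in DMSO and 12.3, 13.7 and 14.8 in Torin1. It fell by 2.19 ± 0.14 (adjusted p = 0.00023), with no overlap, to a Torin1 mean of 3.86 that lay below the median gene. The hedgehog target genes Ptch1 and Gli1, which are also theca markers here, fell by 1.53 ± 0.19 and 1.25 ± 0.23 (adjusted p = 0.0029 and 0.0134), and Gli1 was not called without DMSO sample 2 (adjusted p = 0.0551).

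Amh encodes anti-Müllerian hormone, a known target of SOX9 in Sertoli cells that granulosa cells make too. It was at 37.1, 23.0 and 31.0 in DMSO and 13.6, 13.5 and 11.1 in Torin1, and fell by 1.17 ± 0.17 (adjusted p = 0.00616). Its Torin1 mean of 3.77 lay below the median gene. Ptgds, another target of SOX9, was dim and even, with a change of -0.06 ± 0.08 (adjusted p = 0.762). Cldn11, a tight junction gene of Sertoli cells, was at 0.01 ± 0.08 (adjusted p = 0.961), and Sox10, the third member of the SOXE family beside Sox8 and Sox9, at 0.12 ± 0.17 (adjusted p = 0.782).

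Gdnf, a growth factor that Sertoli cells supply to germ cells, was the larger of the 2 rises. Its values were 37.1, 48.8 and 59.0 in DMSO and 169.0, 129.3 and 151.2 in Torin1, with a change of 1.63 ± 0.18 (adjusted p = 0.00184). Rhox8, a homeobox gene of Sertoli and granulosa cells, rose by 0.60 ± 0.10 (adjusted p = 0.00951), but was dim in both groups (means of 2.61 and 3.21). Inhbb, an activin and inhibin subunit, fell by 1.85 ± 0.43 (adjusted p = 0.0337) and was not called without DMSO sample 2 or 3 or Torin1 sample 2 (adjusted p = 0.114, 0.120 and 0.0667), nor with a pseudocount of 16 (adjusted p = 0.0694). The last called gene, Cst12, fell by 0.39 ± 0.09 (adjusted p = 0.0369) at means of 2.87 and 2.47, and lost the call without DMSO sample 1, 2 or 3 or Torin1 sample 2 or 3 (adjusted p = 0.0701 to 0.123), with a pseudocount of 16 (adjusted p = 0.0804) and with Torin1 samples 2 and 3 averaged (adjusted p = 0.0718). Without DMSO sample 2 or 3 or Torin1 sample 2, 2 genes of this list were called lower in place of 4.

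Genes of FSH receptor signalling and granulosa differentiation were called in both directions. Among 34 measured genes, 9 were called higher and 11 lower, which is 58.8% against 12.1% of all genes, and the median was -0.14. The list was chosen with earlier results of these data known, so this share describes the listed genes and is no test of the pathway. The list shares 6 genes with the cumulus and granulosa markers given above (Amh, Amhr2, Hsd17b1, Inha, Inhbb and Kitl), all 6 called lower. Of the 28 others 9 were called higher and 5 lower. Kitl was not called without DMSO sample 2 or 3 or Torin1 sample 1 or 3 (adjusted p = 0.1111, 0.1114, 0.1015 and 0.0534). It was not called with a pseudocount of 16 either (adjusted p = 0.0787). Lhcgr, Cyp19a1, Adcy3 and Grk2 were not analysed here. Without DMSO sample 1, 5 rather than 9 were called higher. Amhr2, the receptor of anti-Müllerian hormone, fell by 3.997 ± 0.42 (adjusted p = 0.00162), from 291.4, 241.0 and 253.3 to 19.97, 26.1 and 6.80. Its Torin1 mean of 4.04 ± 0.95 (SD) lay below the median gene (4.17), which leaves the size of the fall uncertain. Tnni3, a troponin gene on in granulosa cells, went from 223.8, 234.8 and 245.6 to 48.3, 53.9 and 48.0, and fell by 2.21 ± 0.08 (adjusted p = 4.1e-05).

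The largest rise of this list was that of Creb3l1, a membrane-bound transcription factor related to CREB. Its intensities went from 30.9, 18.0 and 22.5 to 560.2, 444.8 and 395.2, a change of 4.25 ± 0.21 (adjusted p = 8.6e-05). Between receptor and nucleus, the adenylate cyclase gene Adcy9 and the protein kinase A subunit gene Prkar2b fell by 1.63 ± 0.13 and 1.03 ± 0.16 (adjusted p = 0.000549 and 0.00757). Other subunit genes differed: Prkar1a rose by 0.37 ± 0.08 and Prkaca fell by 0.46 ± 0.11 (adjusted p = 0.0289 and 0.0425). Neither was called without DMSO sample 1, 2 or 3 or Torin1 sample 1. Prkacb and Prkar2a were not called (adjusted p = 0.160 and 0.173). Appl1, an adaptor that binds FSHR, fell by 0.61 ± 0.10 and the arrestin gene Arrb2 rose by 0.56 ± 0.09 (adjusted p = 0.00775 and 0.00796). Crem, a cAMP-responsive factor, rose by 1.12 ± 0.20 (adjusted p = 0.0126) from a DMSO mean of 3.49, below the median gene. It was not called without DMSO sample 1 (adjusted p = 0.0514). Among genes of hormone synthesis, Inhba, which encodes an activin subunit, and Fdx1, the electron carrier of mitochondrial steroid enzymes, rose by 2.06 ± 0.21 and 1.97 ± 0.12 (adjusted p = 0.00144 and 0.000229). Star also rose, by 0.50 ± 0.08 from a dim start (DMSO mean of 3.68; adjusted p = 0.00861). Hsd17b1, which makes estradiol from estrone, fell by 1.70 ± 0.14 (adjusted p = 0.000597). Inha fell by 0.42 ± 0.08 (adjusted p = 0.0162), and was not called without DMSO sample 1 or Torin1 sample 1 or 2 (adjusted p = 0.0572, 0.0515 and 0.0551). Cyp11a1 and Hsd3b1 were not called (adjusted p = 0.816 and 0.297).

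**Figure D4:**
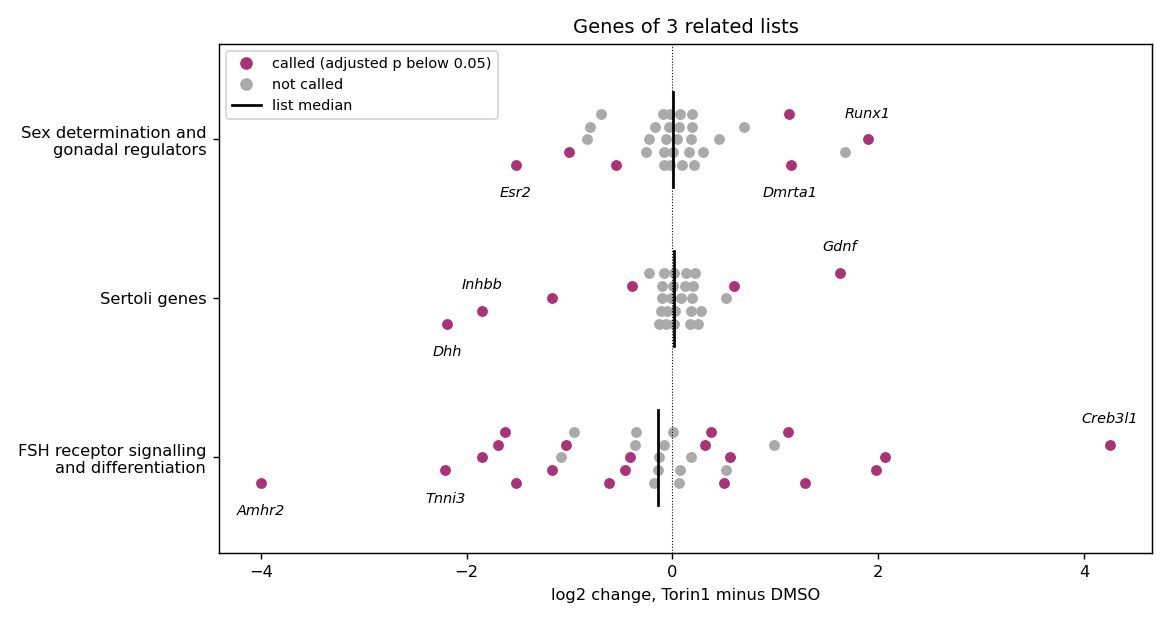
Log2 change, Torin1 minus DMSO (horizontal axis), of each measured gene in 3 related lists, in purple where called and grey where not, with the list median as a black line; points are spread vertically only to keep them apart. The Sertoli genes cluster near 0 apart from single genes on both sides, while the FSH receptor list spreads from Amhr2 at -3.997 to Creb3l1 at 4.25.

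Markers of further cell types were read beside the rise of Sox9. Of 9 measured Sertoli markers, which overlap the list above, 2 were called higher and 1 lower, and their summed intensity was 234.2 to 274.9 in DMSO and 296.5 to 332.5 in Torin1. The higher sum came from Gdnf. Without it the other 8 summed to 197.0 to 215.9 in DMSO and 163.5 to 181.3 in Torin1, a setting chosen after the values were seen. That lower sum came in turn from Dhh, the marker called lower (64.8, 54.8 and 78.6 in DMSO, 12.3, 13.7 and 14.8 in Torin1). Of the 9 markers, 7 lay above 0 in log2 change and 2 below. None of 7 markers of the ovarian surface epithelium was called by limma (0 at an unadjusted p below 0.05 as well), with sums of 141.2 to 155.1 and 98.4 to 148.4. Immune markers summed to 68.1 to 75.6 and 78.4 to 83.5, with 1 of 7 called higher, Cd68 (0.54 ± 0.11, adjusted p = 0.0186). Cd68 lost its call without DMSO sample 1, 2 or 3 or Torin1 sample 1 (adjusted p = 0.0634 to 0.0681). Endothelial markers summed to 101.6 to 107.8 in DMSO and 152.3 to 268.4 in Torin1, and 1 of 6 was called. That gene, Cdh5, rose from 16.7, 15.9 and 15.8 to 92.0, 148.0 and 45.5 (2.33 ± 0.37, adjusted p = 0.00835), with a DMSO mean of 4.10 near the median gene. Pecam1, Tek, Emcn, Kdr and Cldn5 were not called and summed to 85.7 to 91.2 and 91.6 to 120.5. Of 8 theca and Leydig markers 2 fell, the hedgehog targets named above, and 6 lay below the median gene. No marker reads 0 on such arrays, and the part of these cell types in the rise of Sox9 was not tested.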

How the data were processed

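RNA of 3 DMSO and 3 Torin1 samples was amplified (NuGEN Ovation Pico WTA), labelled with biotin and hybridised, per the labels' protocols; groups and numbers come from the titles. The authors deposited 1 linear intensity per probe set and array, for which the submitters' processing notes name RMA, Affymetrix Expression Console 1.1 and GCOS; which settings were used is not known here. Intensities ran from 2.25 to 3268, with array medians of 11.1 to 11.97. No background per probe set was used, and precision is limited by the 3 arrays a group.

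Of 41345 probe sets, 23521 named 1 gene and 1814 named several, which were left out. The brightest probe set over all arrays stood for each of 22180 genes; each member had 1 probe set. Torin1 was compared with DMSO on log2(intensity + 1) with R 4.3.3 and limma 3.58.1 (two-sided lmFit and eBayes fit without covariates or a filter on low values), with Benjamini-Hochberg adjustment over all genes; the fit was tested on simulated data. Members and lists were chosen with earlier results of these data known. Named are all members, the 3 called genes of each list with the largest change, and the 2 genes nearest to each called member. Usf1, Usf2, Zfpm1, Foxo1, Esr1, Wnt4, Rspo1, Fst, Gata6, Ptch1, Gli1, Amh, Ptgds, Cldn11, Sox10, Rhox8, Cst12, Adcy9, Prkar2b, Prkar1a, Prkaca, Prkacb, Prkar2a, Appl1, Arrb2, Crem, Inhba, Inha, Fdx1, Star, Cyp11a1, Hsd3b1, Hsd17b1, Cd68, Cdh5 and the other endothelial markers were named after their values were seen. Kitl and Gadd45g were also named after their values were seen. The 16 alternatives include each of the 6 arrays left out and Torin1 samples 2 and 3 averaged. Further ones were a replicate block, array weights and eBayes with a trend. The rest were no pseudocount, a pseudocount of 16, genes above the median level only, the mean of probe sets, repeated quantile normalization and median centring. Results that depended on them are taken up in the closing section. Promoter windows are RefSeq's.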

Additional observations from a re-analysis of the deposited data

How the results depend on the processing

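The number of arrays limits these results, and signal over background was not measured here. Over 16 alternatives each, Sox9, Foxl2 and Fshr kept direction and call (log2 changes of 2.13 to 2.96, -1.60 to -1.25 and -3.28 to -2.42). Nr5a2 kept its direction, and its call in 11. Of all genes, 655 to 1389 were called higher and 844 to 1694 lower with 1 array left out. Same-numbered samples did not deviate together (correlations of -0.21, -0.30 and -0.15), so the numbers were not taken as pairs. Samples of unlike number had correlations of -0.12 to 0.31, and whether any of them shared a batch was not tested. With the replicate block, which pairs equal numbers, 657 genes were called higher and 908 lower, 1 member higher and 2 Sertoli genes lower. Nr0b1, Inhbb, Esr1, Cst12 and Cd68 were then not called (adjusted p = 0.0560, 0.0843, 0.0786, 0.0702 and 0.0592). The count of members called higher was also 1 with a pseudocount of 16, with repeated quantile normalization, with median centring and among genes above the median level, where Nr0b1 is not tested, and 1 to 2 with 1 array left out. Of the Sertoli genes, 2 were called lower with a pseudocount of 16 and 2 to 4 with 1 array left out, and 1 was called higher among genes above the median level. Of the regulators of gonadal fate, 5 were called lower with array weights and 2 to 5 with 1 array left out. Of the FSH receptor list, 5 to 9 were called higher with 1 array left out. Signs turned only for members near 0. Nr5a1 was at -0.0323 with median centring, -0.0741 with array weights, -0.0247 with Torin1 samples 2 and 3 averaged and -0.0931 to 0.0626 with 1 array left out. Gata4 was at 0.0450 with array weights, 0.0220 with Torin1 samples 2 and 3 averaged and -0.1198 to 0.0539 with 1 array left out. Dmrt1 was at -0.0017 with repeated quantile normalization and -0.0478 to 0.1396 with 1 array left out. The cause of these differences was not tested.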
